A study of Mus musculus with 9 samples.

Results

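The genes described here are 5 Wnt ligands (Wnt2, Wnt2b, Wnt4, Wnt5a and Wnt9b), the R-spondins Rspo1 and Rspo3, the receptor Fzd2 and the secreted inhibitors Sfrp1 and Sfrp2. They were chosen by symbol, with earlier results of these data known, and each of the 10 symbols matched 1 of the 24453 genes in the table. RNA sequencing covered 3 libraries in each of 3 groups of mouse liver cells, with each library pooled from 3 to 5 mice. HSCs were hepatic stellate cells, the vitamin A-storing pericytes of the liver, separated by density gradient from untreated wild-type livers. CCl4-fib were CD45- GFP+ cells sorted from Col1a2-GFP Tg mice that had received the hepatotoxin carbon tetrachloride by intraperitoneal injection 2 times a week for 8 weeks. NASH-fib were sorted through the same gate from male MC/COL mice, which combine Col1a2-GFP Tg with MC4R-KO, after 20 weeks on a Western diet begun at an age of 8 weeks, a model of non-alcoholic steatohepatitis. The GFP transgene is driven by a collagen promoter (Col1a2), so the gate takes collagen-expressing cells of any origin, and isolation method, genotype and treatment differ between HSCs and both fibroblast groups and cannot be told apart. Between NASH-fib and CCl4-fib, MC4R genotype, diet, toxin and length of treatment differ together and cannot be told apart either.

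Wnt proteins are lipid-modified ligands that bind Frizzled receptors with LRP5 or LRP6 and stabilise beta-catenin, or signal through ROR receptors without it. R-spondins bind LGR receptors and keep the ubiquitin ligases RNF43 and ZNRF3 from removing Frizzled proteins from the cell surface, so they raise the response to Wnt ligands. Secreted frizzled-related proteins carry a Frizzled-like domain and can bind Wnt ligands outside the cell. In the healthy liver, Wnt2, Wnt9b and Rspo3 from cells around the central vein maintain the pericentral gene programme of hepatocytes.

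HSC libraries held 3071070 to 3825522 reads on genes, CCl4-fib libraries 4687349 to 5634273 and NASH-fib libraries 3289758 to 5021156. The labels were checked with Lrat, the retinol-esterifying enzyme of quiescent stellate cells, which fell by 5.70 (CCl4-fib) and 5.30 (NASH-fib) on the log2 scale, and with the myofibroblast actin Acta2, which rose by 6.57 and 6.81. Transcripts of other cells were present as well, as the summed value of a marker list shows. For 13 endothelial markers this sum was 10900 to 25600 in HSCs, 491 to 510 in CCl4-fib and 1600 to 6040 in NASH-fib, and for 12 hepatocyte markers 21900 to 50100, 2240 to 3020 and 7060 to 30400. NASH-fib replicate 1 stood apart from the other libraries of its group: the chi-square statistic per gene between its reads and theirs was 108.1 and 89.5, against 29.9 between the other NASH-fib libraries and 72.3 between it and HSC replicate 2, which carries the same prefix in its name. It held the highest NASH-fib value of Wnt2b, Rspo1, Rspo3, Fzd2 and Sfrp2 and the lowest of Wnt4, Wnt5a and Sfrp1, so results without it are given as well. Values below are the deposited normalized values (reads multiplied by a factor for each library), and a gene is called changed when its limma adjusted p is under 0.05 and its log2 fold change is at or beyond 1 in either direction. In bulk RNA, fewer cells of a type and less RNA per cell cannot be told apart.

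Bases upstream of the RefSeq start (build GRCm38.p6, the same as mm10) were available for 6 of the 10 genes: Wnt2, Wnt2b, Wnt4, Wnt9b, Rspo1 and Sfrp2. The 250 bases before the start are shown for the genes that separated NASH-fib from CCl4-fib (Wnt2b, Wnt4 and Sfrp2) and for Wnt2, the close paralog of Wnt2b with another pattern. They lie at chr3:104961710-104961959 on the minus strand (Wnt2b), chr6:18030446-18030695 on the minus strand (Wnt2), chr4:137277385-137277634 on the plus strand (Wnt4) and chr3:83766071-83766320 on the plus strand (Sfrp2). Each is written 5′ to 3′ along its gene, and capitals mark the GC box GGGCGG or the CCAAT box CCAAT on either strand.
Wnt2b: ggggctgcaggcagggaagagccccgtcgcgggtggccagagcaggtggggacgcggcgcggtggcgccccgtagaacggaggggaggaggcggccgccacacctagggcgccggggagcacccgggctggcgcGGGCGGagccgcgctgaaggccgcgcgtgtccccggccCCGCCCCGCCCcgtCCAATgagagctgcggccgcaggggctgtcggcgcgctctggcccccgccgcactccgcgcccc
Wnt2: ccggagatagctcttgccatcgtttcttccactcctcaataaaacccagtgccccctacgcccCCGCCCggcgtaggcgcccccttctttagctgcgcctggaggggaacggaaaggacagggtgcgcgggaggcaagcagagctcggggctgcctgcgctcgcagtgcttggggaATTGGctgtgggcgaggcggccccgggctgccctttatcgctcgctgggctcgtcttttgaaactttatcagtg
Wnt4: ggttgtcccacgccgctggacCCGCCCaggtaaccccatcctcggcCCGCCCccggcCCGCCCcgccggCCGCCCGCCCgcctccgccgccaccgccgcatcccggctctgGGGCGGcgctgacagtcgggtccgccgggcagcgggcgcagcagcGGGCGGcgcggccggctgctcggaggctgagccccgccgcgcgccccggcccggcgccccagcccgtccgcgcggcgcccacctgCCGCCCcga
Sfrp2: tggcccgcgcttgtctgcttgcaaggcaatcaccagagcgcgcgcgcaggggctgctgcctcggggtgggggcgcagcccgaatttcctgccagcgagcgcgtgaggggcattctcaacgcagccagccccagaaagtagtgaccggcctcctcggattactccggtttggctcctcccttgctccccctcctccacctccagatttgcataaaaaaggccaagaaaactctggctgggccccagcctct
The window of Wnt4 held 8 GC boxes, some of which share bases, and no CCAAT box, and 85.2% of its bases were G or C, against a median of 52.4% over 32851 RefSeq windows of this length. Wnt2b held 3 GC boxes and 1 CCAAT box (80.8% G or C), and Wnt2 held 1 of each (63.6%). Sfrp2 held neither (63.6%), and neither did Rspo1 (66.8%), while Wnt9b held 3 GC boxes and 1 CCAAT box (72.0%). GC boxes stood in 32.7% of all windows and CCAAT boxes in 33.8%. The TCF/LEF letters CTTTGAT (3.21% of all windows) and the AP-1 letters TGANTCA (6.75%) were in none of the 6 windows on either strand.

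**Figure D1:**
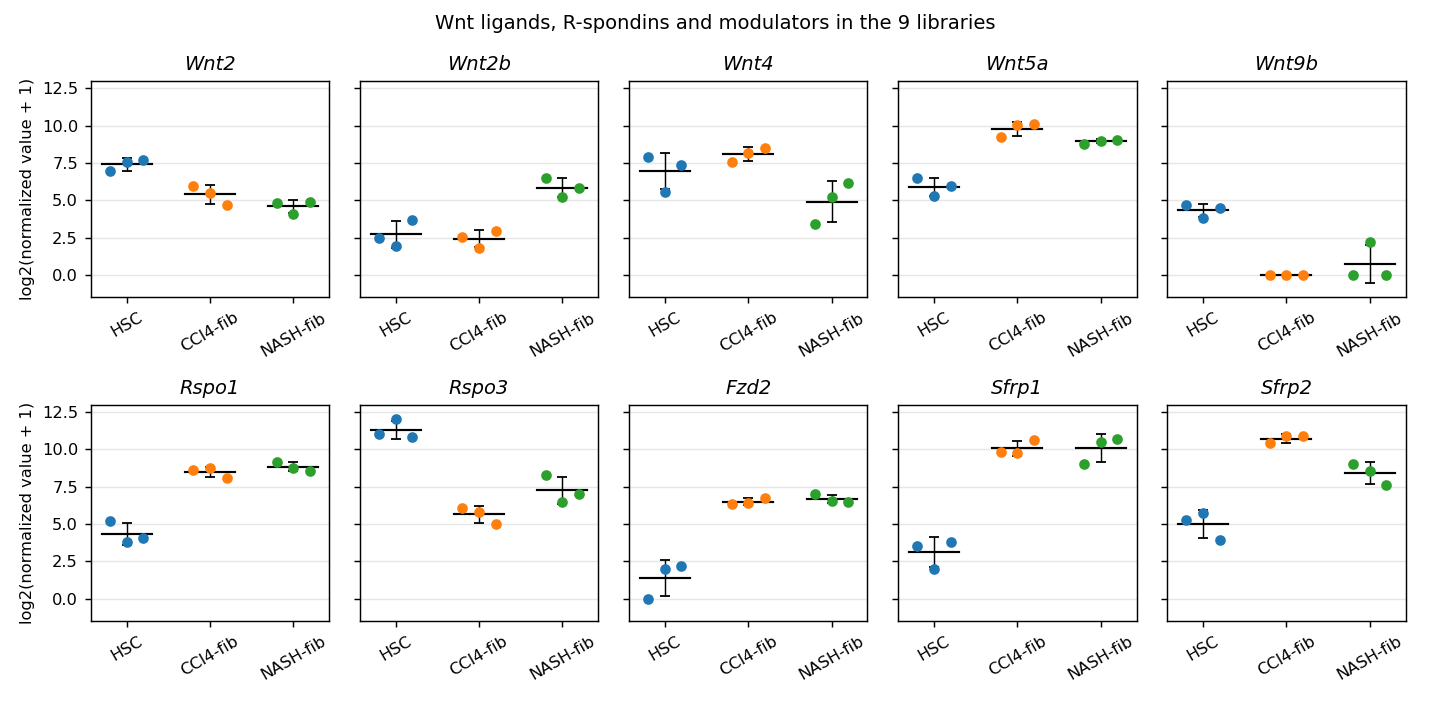
Normalized value of each gene on the log2(value + 1) scale in the 3 libraries of HSC, CCl4-fib and NASH-fib (points, in the order of the library numbers), with the group mean (line) and SD (error bar). Sfrp1, Sfrp2, Wnt5a, Rspo1 and Fzd2 are higher in all 6 fibroblast libraries than in any HSC library, Rspo3, Wnt2 and Wnt9b are lower in all 6, and Wnt2b is high in NASH-fib.

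Among the ligands, Wnt5a rose in both kinds of fibroblast, Wnt2 and Wnt9b fell in both, Wnt2b rose in NASH-fib, and Wnt4 was lower in NASH-fib than in CCl4-fib. Wnt5a, the prototype ligand of beta-catenin-independent signalling (chromosome 14, 28505473 to 28525515, plus strand, mm10 as for all positions), had values of 88.8, 37.9 and 61.0 in the 3 HSC libraries, while CCl4-fib had 594, 1042 and 1111 and NASH-fib had 447, 514 and 529. All 6 fibroblast libraries lay above the HSC libraries, and the 3 NASH-fib libraries lay below the 3 of CCl4-fib. The log2 fold change against HSCs was 3.88 in CCl4-fib (SE 0.40, limma adjusted p = 9.46e-05) and 3.05 in NASH-fib (SE 0.40, limma adjusted p = 0.00061). Between the fibroblast groups the log2 difference was -0.83, with a 95% interval from -1.72 to 0.06, and did not pass the test (limma adjusted p = 0.198).

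Wnt2 (chromosome 6, 17988940 to 18030445, minus strand) is an activator of beta-catenin known from the liver sinusoid. Its values were 122, 194 and 212 in HSCs, while CCl4-fib had 62.7, 44.2 and 24.8 and NASH-fib had 27.2, 16.0 and 28.5. Every fibroblast library was below every HSC library, and the ranges of CCl4-fib and NASH-fib overlapped. The mean was 4.00-fold lower in CCl4-fib (log2 fold change -2.03, SE 0.49, limma adjusted p = 0.0113) and 7.35-fold lower in NASH-fib (-2.83, SE 0.49, limma adjusted p = 0.00315).

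Wnt9b (chromosome 11, 103727363 to 103749821, minus strand), another ligand of the central vein, rested on few reads. It had 21, 9 and 18 reads in the HSC libraries (values of 24.6, 13.1 and 21.5), 0 reads in all of CCl4-fib, and 4 reads in NASH-fib, all in replicate 2. Against the value of 3 reads per library, the floor used for a group with at most 3 reads in every library, it was at least 7.59-fold lower in CCl4-fib than in HSCs (limma adjusted p = 0.00306). In NASH-fib the mean value was 1.19 ± 2.06 (SD, n = 3) against 19.7 ± 5.93 in HSCs (log2 fold change -3.60, SE 0.82, limma adjusted p = 0.0144). The NASH-fib call was lost without HSC replicate 1 (limma adjusted p = 0.0656) or without HSC replicate 3 (0.0525).

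The values of Wnt2 and Wnt9b stood beside those of endothelial markers, all 13 of which fell in CCl4-fib against HSCs and 10 of which fell in NASH-fib, with median log2 fold changes of -5.15 and -2.55. Within HSCs, replicate 2 had the lowest endothelial sum (10900, against 17200 and 25600), the lowest Wnt9b and the middle value of Wnt2. Single endothelial markers differed in this library: Cdh5, Lyve1, Tek and Tie1 were the highest of the HSC group, Oit3 was in the middle and the others were lowest. Of the 13 markers, Tie1 was at 0 in CCl4-fib replicate 3 and none was at 0 in HSCs or NASH-fib. The part of endothelial RNA in the levels of Wnt2 and Wnt9b was not tested.

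Wnt2b (chromosome 3, 104944805 to 104961709, minus strand) encodes a ligand of the beta-catenin pathway closely related to Wnt2. It had 4, 2 and 10 reads in the HSC libraries (values of 4.68, 2.91 and 12.0), while CCl4-fib had 6, 3 and 7 reads (4.76, 2.55 and 6.68) and NASH-fib 65, 41 and 56 reads (88.4, 36.5 and 55.0). The NASH-fib libraries lay above all 6 others, and HSCs and CCl4-fib overlapped. The mean in NASH-fib was 9.20-fold that of HSCs (log2 fold change 3.12, SE 0.66, limma adjusted p = 0.0101) and 12.9-fold that of CCl4-fib (3.41, SE 0.66, limma adjusted p = 0.0151). CCl4-fib and HSCs differed by -0.29 on the log2 scale, with a 95% interval from -1.76 to 1.17 (limma adjusted p = 0.767).

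Wnt4 (chromosome 4, 137277635 to 137299501, plus strand), a ligand required in kidney and female reproductive tract development, had values of 236, 46.6 and 166 in HSCs, while CCl4-fib had 193, 291 and 365 and NASH-fib had 9.52, 36.5 and 69.8. NASH-fib lay below CCl4-fib in every library, while HSCs overlapped both fibroblast groups. The mean was 7.33-fold lower in NASH-fib than in CCl4-fib (log2 fold change -3.18, SE 0.76, limma adjusted p = 0.0278). Against HSCs, neither CCl4-fib (1.15, SE 0.76, limma adjusted p = 0.278) nor NASH-fib (-2.03, SE 0.76, limma adjusted p = 0.125) passed the test, and without HSC replicate 2, the library with the lowest value, NASH-fib was called lower (-2.71, limma adjusted p = 0.0365).

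The R-spondins moved in opposite directions. Rspo3 (chromosome 10, 29453107 to 29535867, minus strand), the R-spondin of pericentral cells and of stellate cells in healthy liver, had values of 2085, 4156 and 1866 in HSCs, while CCl4-fib had 67.5, 56.1 and 31.5 and NASH-fib had 310, 88.2 and 128. The lowest HSC library was above all fibroblast libraries, and each NASH-fib library was above each CCl4-fib library. The mean was 52.3-fold lower in CCl4-fib (log2 fold change -5.65, SE 0.53, limma adjusted p = 6.03e-05) and 15.4-fold lower in NASH-fib (-4.05, SE 0.53, limma adjusted p = 0.000577). The difference of NASH-fib from CCl4-fib was 1.60 on the log2 scale, with a 95% interval from 0.43 to 2.78, and missed the threshold (limma adjusted p = 0.0792). It passed in edgeR's quasi-likelihood test (adjusted p = 0.0465), in DESeq2 (0.0113) and in limma without NASH-fib replicate 2 (0.0433).

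Rspo3 was highest in HSC replicate 2, the HSC library with the lowest endothelial sum (10900) and with the highest Lrat value of the group (14894). The endothelial markers Cdh5, Lyve1, Tek and Tie1 were also highest in that library. Quiescent stellate cell markers fell with Rspo3, 10 of 12 in CCl4-fib and 11 of 12 in NASH-fib, with median log2 fold changes of -4.53 and -4.20 against HSCs. Between the fibroblast groups, 10 of 13 endothelial markers were higher in NASH-fib, as was Rspo3 in value, and their part in its level was not tested.

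Rspo1 (chromosome 4, 124986430 to 125009099, plus strand), an R-spondin that acts through the same LGR receptors, had values of 35.1, 13.1 and 15.5 in HSCs, while CCl4-fib had 395, 428 and 271 and NASH-fib had 575, 436 and 383. The fibroblast libraries lay above the HSC libraries and overlapped each other. The rise was 17.2-fold in CCl4-fib (log2 fold change 4.14, SE 0.44, limma adjusted p = 0.000104) and 21.9-fold in NASH-fib (4.50, SE 0.44, limma adjusted p = 9.95e-05). The fibroblast groups differed by 0.36 on the log2 scale, with a 95% interval from -0.61 to 1.32 (limma adjusted p = 0.614).

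Fzd2 (chromosome 11, 102604431 to 102608058, plus strand), a Frizzled receptor, was at the floor in HSCs with 0, 2 and 3 reads. The CCl4-fib values were 79.4, 85.9 and 107, and those of NASH-fib were 126, 91.7 and 87.5. It was therefore at least 23.7-fold higher in CCl4-fib (limma adjusted p = 0.000222) and at least 26.7-fold higher in NASH-fib (limma adjusted p = 0.000294) than in HSCs. The fibroblast groups overlapped, with a log2 difference of 0.16 and a 95% interval from -1.21 to 1.52 (limma adjusted p = 0.884).

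Sfrp1 (chromosome 8, 23411502 to 23449632, plus strand) had the largest fitted rise of the 10 genes against HSCs in both fibroblast groups. This secreted inhibitor had 9, 2 and 11 reads in HSCs (values of 10.5, 2.91 and 13.2), while CCl4-fib had 914, 865 and 1588 and NASH-fib had 511, 1478 and 1655. The mean was 127-fold higher in CCl4-fib (log2 fold change 6.97, SE 0.59, limma adjusted p = 3.81e-05) and 137-fold higher in NASH-fib (6.97, SE 0.59, limma adjusted p = 4.85e-05). CCl4-fib and NASH-fib overlapped, and their log2 difference was -0.0016 with a 95% interval from -1.32 to 1.31 (limma adjusted p = 0.999), a sign that changed with the scaling.

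Sfrp2 (chromosome 3, 83766321 to 83774314, plus strand), the related inhibitor, had values of 37.4, 52.4 and 14.4 in HSCs, while CCl4-fib had 1356, 1917 and 1894 and NASH-fib had 527, 378 and 198. The 3 groups did not overlap, with NASH-fib between the others. The mean was 49.6-fold higher in CCl4-fib than in HSCs (log2 fold change 5.75, SE 0.52, limma adjusted p = 4.87e-05) and 10.6-fold higher in NASH-fib (3.43, SE 0.52, limma adjusted p = 0.00139). NASH-fib was 4.69-fold lower than CCl4-fib (-2.32, SE 0.52, limma adjusted p = 0.0233).

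Markers of mesothelial cells and portal fibroblasts, other cells of the liver surface and portal tract, rose beside Wnt5a, Rspo1, Fzd2, Sfrp1 and Sfrp2. The summed mesothelial markers were 648 to 1030 in HSCs, 16400 to 22400 in CCl4-fib and 25700 to 32400 in NASH-fib, with 7 of the 7 measured called higher in each fibroblast group. The summed portal fibroblast markers were 207 to 248, 11800 to 15200 and 6470 to 12300, again with 7 of 7 called higher. None of the mesothelial markers measured was at 0 in any library. Smooth muscle markers (sums of 69.9 to 132 in HSCs, 2650 to 13000 in CCl4-fib and 3000 to 18900 in NASH-fib) were all 4 called higher in each fibroblast group, and cholangiocyte markers (39.8 to 69.9, 1370 to 3250 and 1120 to 1290) rose in 3 of 5 tested in CCl4-fib and 5 of 5 in NASH-fib. NASH-fib replicate 1 had the lowest Sfrp1 value of the 6 fibroblast libraries. Within NASH-fib it also had the lowest sums of portal fibroblast (6470), smooth muscle (3000) and cholangiocyte markers (1120). Its mesothelial sum of 27700 lay between those of the other NASH-fib libraries (25700 and 32400). Among the mesothelial markers, Msln, Upk3b, Upk1b and Lrrn4 were lowest in this library of the group, while Gpm6a, Wt1 and Bnc1 were highest. Of the cholangiocyte markers, Krt19 and Krt7 were lowest in this library of the group, while Epcam, Sox9 and Cftr were highest. The part of these cells in the levels of the 5 genes was not tested.

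**Figure D2:**
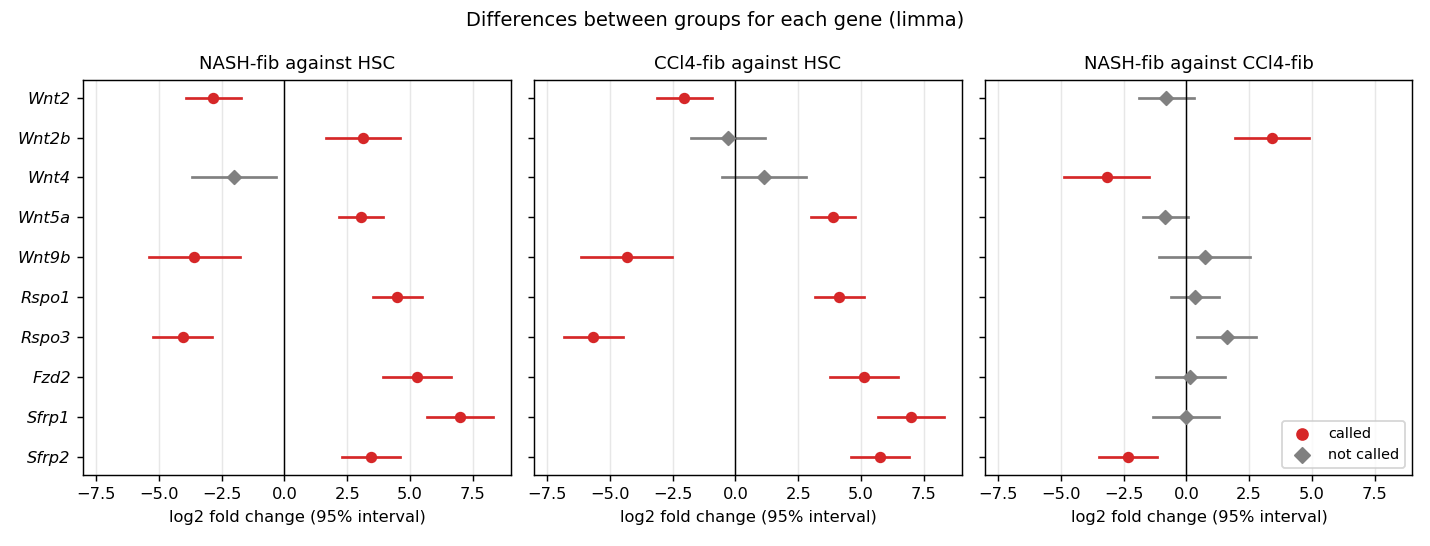
Log2 fold change of each gene with its 95% interval in the 3 comparisons, from limma on log2(value + 1). Red circles are called and grey diamonds are not. Against HSCs, 9 genes are called in NASH-fib and 8 in CCl4-fib, and Wnt2b, Wnt4 and Sfrp2 are called between the fibroblast groups.

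In all, 9 of the 10 genes were called in NASH-fib against HSCs, 6 higher (Wnt2b, Wnt5a, Rspo1, Fzd2, Sfrp1 and Sfrp2) and 3 lower (Wnt2, Wnt9b and Rspo3), where 12.5% of all 13651 genes tested were called, 8.23% higher and 4.3% lower. In CCl4-fib against HSCs 8 were called, 5 higher and 3 lower, against 27.8% of all genes, 16.2% higher and 11.7% lower. The calls in CCl4-fib were the same genes without Wnt2b, and both comparisons share the HSC libraries. NASH-fib against CCl4-fib had 3 calls, Wnt2b higher and Wnt4 and Sfrp2 lower, against 10.6% of all genes, 4.97% higher and 5.66% lower. Counted by libraries that do not overlap, 9 of the 10 genes stood apart in NASH-fib against HSCs (24.4% of all genes), 8 in CCl4-fib against HSCs (48.6%) and 5 between the fibroblast groups (39.1%), where Wnt2b and Rspo3 were higher in NASH-fib (17.1% of all genes higher) and Wnt4, Wnt5a and Sfrp2 lower (22% lower). The median log2 fold change over the 10 genes was 3.08, 2.52 and 0.08 in these comparisons, against -0.02, 0.18 and -0.11 over all genes tested. With genes at the floor set to their bound, or to 0 where no bound could be given, the medians were 3.08, 2.52 and -0.00079. The 10 genes were chosen with earlier results of these data known, so counts and medians beside those of all genes are a description only. All 10 genes passed the filter on low counts, with Wnt2b reaching the minimum in every library only in NASH-fib, Wnt9b only in HSCs and Fzd2 only in the fibroblast groups.

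Without NASH-fib replicate 1, the same 9 genes were called in NASH-fib against HSCs, with log2 fold changes of 2.80 for Wnt2b, 3.12 for Wnt5a, 4.33 for Rspo1, 7.51 for Sfrp1, 3.12 for Sfrp2, -2.94 for Wnt2, -3.23 for Wnt9b and -4.56 for Rspo3 and a limma adjusted p of at most 0.0342, and Fzd2, at the floor in HSCs, was called too (0.000928). Between the fibroblast groups, Wnt2b (3.09, limma adjusted p = 0.0456) and Sfrp2 (-2.63, 0.0282) were called without this library, Wnt4 (-2.41, 0.06) was not, and the difference of Rspo3 was 1.09 (0.199).

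Whether the 3 differences between NASH-fib and CCl4-fib were called depended on single libraries. Without CCl4-fib replicate 2, none of the 10 genes was called, with limma adjusted p = 0.0717 for Wnt2b, 0.104 for Wnt4 and 0.0989 for Sfrp2, while the log2 differences were 3.11, -3.13 and -2.23. Wnt4 was the sole loss without NASH-fib replicate 1 (limma adjusted p = 0.06), Wnt4 and Sfrp2 were lost without CCl4-fib replicate 1 (0.0643 and 0.0581) or replicate 3 (0.0881 and 0.0706), and Wnt2b and Sfrp2 were lost without NASH-fib replicate 3 (0.056 and 0.0817). In none of these did a difference change its direction. Calls over all genes were not counted in these fits, so they do not show whether the losses are particular to these genes. The library names also carry a prefix whose meaning the labels do not give, and within a prefix there were too few libraries for a test. Among the libraries that share the prefix of NASH-fib replicate 1 and CCl4-fib replicate 1, Wnt2b stood at 88.4 against 4.76, Wnt4 at 9.52 against 193 and Sfrp2 at 527 against 1356. For the prefix of NASH-fib replicates 2 and 3 and CCl4-fib replicate 3, Wnt2b stood at 36.5 and 55.0 against 6.68, Wnt4 at 36.5 and 69.8 against 365, and Sfrp2 at 378 and 198 against 1894. With the prefix as a term of the fit, Wnt4 was the 1 gene still called between the fibroblast groups. The log2 differences of Wnt2b and Sfrp2 were then 3.49 and -2.40, no smaller than without the term, at a limma adjusted p of 0.0568 and 0.0541. In NASH-fib against HSCs, Wnt2 (-2.63), Wnt2b (3.14) and Wnt9b (-3.63) were not called with the term (0.0779, 0.186 and 0.232), and their fold changes stayed close to those above.

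Other cell types also moved between the fibroblast groups. Hepatocyte markers (5 of 12), macrophage markers (4 of 10), neutrophil markers (4 of 5), lymphocyte markers (2 of 4 tested) and endothelial markers (10 of 13) were called higher in NASH-fib than in CCl4-fib, and none of these lists had a marker called lower. Cholangiocyte markers were called higher in 2 of 5. Activated fibroblast markers were called lower in 3 of 7 (Col1a1, Col1a2 and Col3a1), portal fibroblast markers in 2 of 7 and mesothelial markers in 1 of 7, as were Wnt4 and Sfrp2 among the 10 genes. Across the NASH-fib libraries, Wnt2b was highest in replicate 1 (88.4), where the neutrophil sum was lowest (591, against 5980 and 1180), and lowest in replicate 2 (36.5), where the sums of endothelial (1600), hepatocyte (7060), macrophage (2780) and lymphocyte markers (49.9) were lowest and the neutrophil sum highest. HSC libraries had endothelial sums of 10900 to 25600, hepatocyte sums of 21900 to 50100 and at most 10 reads of Wnt2b. They came from healthy livers, so they do not show what these cells express in NASH livers. The gate took CD45- cells, and macrophages, neutrophils and lymphocytes carry CD45, but their transcripts were present in NASH-fib. The part of all these cells in the Wnt2b, Wnt4 and Sfrp2 levels was not tested.

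**Figure D3:**
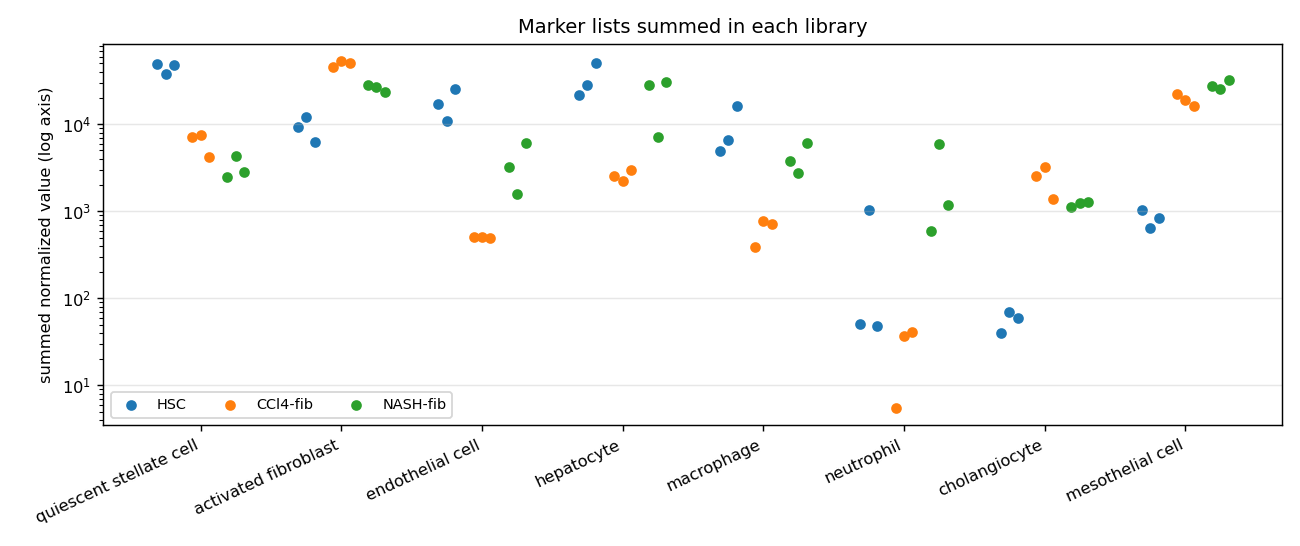
Summed normalized value (log axis) of 8 marker lists in each library, by group. Endothelial, hepatocyte and macrophage sums are lowest in CCl4-fib, and the mesothelial and cholangiocyte sums are higher in all 6 fibroblast libraries than in HSCs.

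Per length of transcript, in RPKM (reads per kilobase of exon, scaled to the reads on genes of the library), Rspo3 led the 10 genes in HSCs at 253 ± 118 (SD, n = 3) and did not overlap the next, Wnt2 at 18.6 ± 5.06. The levels of Wnt2 and Wnt4 (8.77 ± 5.62) overlapped, as did those of Wnt4, Sfrp2 (3.89 ± 2.15), Wnt5a (3.22 ± 1.31) and Rspo1 (2.60 ± 1.47), each with its neighbour. Wnt9b, Sfrp1, Wnt2b and Fzd2 were at most 1.22 RPKM in every HSC library. In CCl4-fib, Sfrp2 was first at 193 ± 35.5 and stood clear of Sfrp1 (57.5 ± 20.7), Wnt5a (47.1 ± 14.5) and Rspo1 (44.7 ± 10.1), which overlapped. Next came Wnt4 (16.6 ± 5.07), apart from both neighbours, and then Fzd2 (5.60 ± 0.89), Rspo3 (4.84 ± 1.72) and Wnt2 (4.66 ± 2.01), each overlapping the next, before Wnt2b (0.29 ± 0.13), which stood clear below Wnt2. NASH-fib had no such gap at the top, with Sfrp1 (62.2 ± 31.5), Rspo1 (56.9 ± 12.1), Sfrp2 (41.2 ± 18.5), Wnt5a (25.6 ± 2.23) and Rspo3 (16.4 ± 11.1) each overlapping the next. Fzd2 (6.28 ± 1.32), Wnt2b (3.76 ± 1.65), Wnt2 (2.54 ± 0.73) and Wnt4 (2.26 ± 1.77) followed in NASH-fib, and Wnt9b was last.

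The mix of ligand transcripts changed accordingly. Of the summed RPKM of all 19 Wnt genes, Wnt2 made up 39.1%, 78.6% and 59.3% in the HSC libraries, Wnt4 42.0%, 10.4% and 25.7%, and Wnt5a 13.9%, 7.45% and 8.28%. In CCl4-fib, Wnt5a made up 48.7%, 64.6% and 63.5%, and in NASH-fib 62.2%, 52.8% and 62.3%. The shares of Wnt5a in the fibroblast groups thus overlapped, while those of Wnt4 were 18.0% to 23.8% in CCl4-fib and 1.51% to 9.36% in NASH-fib. Wnt2b held 4.57% to 15.0% of the ligand RPKM in NASH-fib and at most 1.98% in any other library. The summed RPKM of the 19 genes was 26.2 to 37.9 in HSCs, 62.7 to 90.1 in CCl4-fib and 37.0 to 50.1 in NASH-fib. These shares were not tested and follow from the same reads as the levels above.

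**Figure D4:**
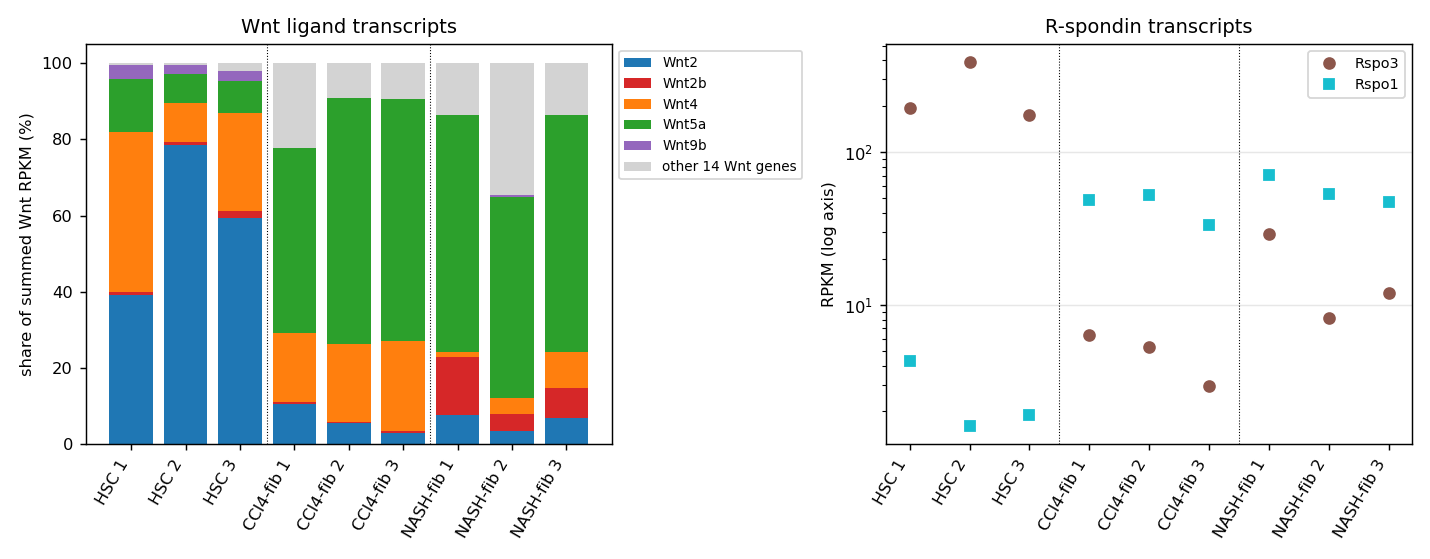
Left, share of the summed Wnt RPKM of 19 genes held by each of the 5 ligands and by the other 14 in each library (stacked bars, percent). Right, RPKM of Rspo3 (circles) and Rspo1 (squares) in each library on a log axis, with Rspo3 above Rspo1 in every HSC library and below it in every fibroblast library.

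For the R-spondins, Rspo3 held 97.5% to 99.6% of the summed R-spondin RPKM in HSCs, 8.14% to 11.5% in CCl4-fib and 13.4% to 29.2% in NASH-fib. Rspo1 exceeded Rspo3 by a ratio of 7.67 to 11.3 in CCl4-fib and of 2.43 to 6.48 in NASH-fib. Sfrp2 RPKM was above that of Sfrp1 in each CCl4-fib library, by 3.25, 4.85 and 2.61 times. In NASH-fib it was 2.26 times that of Sfrp1 in replicate 1 and 0.56 and 0.26 times in replicates 2 and 3.

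Of all genes tested, those with the pattern most like each of the 10 were found by Pearson's r of log2(value + 1) over the 9 libraries, which share 3 groups, so that a high r mostly restates group means. Sfrp2 was most like the collagen genes Col1a2 (r = 0.997) and Col5a2 (0.989) and Prickle3 (0.988). For Sfrp1 they were the keratin Krt7 (0.996), Acta2 (0.993) and the complement gene C3 (0.993), for Wnt5a Calcb (0.996), Star (0.991) and Dpysl3 (0.989), for Rspo1 Cd109 (0.994), Fam184a (0.993) and Tgfb2 (0.992), and for Fzd2 Plxna4 (0.991), Celf2 (0.990) and Figf (0.989). Rspo3 was most like the natriuretic peptide receptor Npr3 (0.994), Plxnc1 (0.993) and the heparanase Hpse (0.987). Wnt2 was most like Fgd5 (0.988), Adamtsl4 (0.974) and D830030K20Rik (0.971), and Wnt9b like Ptpn20 (0.992), Etnk1 (0.984) and Snrk (0.980). For Wnt2b they were Sypl (0.963), Ubd (0.952) and Vsnl1 (0.951), and for Wnt4 Zswim8 (0.966), Mxra7 (0.964) and Srgap1 (0.962). Among the 10 themselves, Wnt5a and Sfrp1 were nearest each other (0.964), while the nearest of the 10 to Wnt4 was Wnt2 at 0.255 and to Wnt2b was Rspo1 at 0.450.

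The rest of the pathway was described with a list of 77 genes, 48 of which passed the filter. This list too was chosen with earlier results of these data known, so its shares beside all genes are a description only. In NASH-fib against HSCs 10 of the 48 were called higher and 3 lower (median log2 fold change 0.19), in CCl4-fib against HSCs 15 and 5 (1.02), and in NASH-fib against CCl4-fib 1 and 3 (-0.37). As shares these were 27.1%, 41.7% and 8.33%, beside 12.5%, 27.8% and 10.6% of all genes. The 4 calls between the fibroblast groups came to 0 when CCl4-fib replicate 2 was left out. Omitting NASH-fib replicate 3 left 1 call, and 2 were left on omitting replicate 1 of either fibroblast group or the third CCl4-fib library. The share of all genes called was not counted in these fits.

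Outside the cell, the inhibitors Dkk2 and Sfrp4 had 0 reads in every HSC library. Dkk2, a dickkopf protein that binds LRP co-receptors, was at least 18.3-fold higher in NASH-fib (limma adjusted p = 0.00163) and at least 8.94-fold higher in CCl4-fib (0.00657), and Sfrp4 at least 9.83-fold (0.000973) and 36.5-fold (9.91e-05). Such bounds are for group means. In CCl4-fib the values of Dkk2 were 69.85, 29.77 and 2.86, the last from 3 reads. The ligand Wnt5b, close kin of Wnt5a, was at least 11.2-fold higher in NASH-fib (limma adjusted p = 0.00587) and at least 12.5-fold higher in CCl4-fib (0.00212). Frzb, a further frizzled-related inhibitor, fell in both, by 2.85 on the log2 scale in NASH-fib (limma adjusted p = 0.00638) and by 1.91 in CCl4-fib (0.0275), opposite in sign to Sfrp1 and Sfrp2.

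Of the receptors, the Wnt5a receptor Ror2 was at least 9.52-fold higher in CCl4-fib than in HSCs, which had 0 reads (limma adjusted p = 0.00251), with a mean NASH-fib value of 6.14 that did not pass (0.18). The related receptor Ror1 was called higher than in HSCs both in NASH-fib (log2 fold change 3.41, limma adjusted p = 0.00176) and in CCl4-fib (3.61, 0.000793). Fzd8 was lower in CCl4-fib (log2 fold change -2.06, limma adjusted p = 0.0288), and in NASH-fib its fold change was -2.03 (0.0533). Lrp5, a co-receptor of the beta-catenin branch, was lower in NASH-fib than in HSCs (-1.66, limma adjusted p = 0.0412), with -1.04 in CCl4-fib (0.122). Fzd4 was higher in NASH-fib than in CCl4-fib (1.98, limma adjusted p = 0.0306), with values of 273, 292 and 223 against 110, 52.7 and 48.7. Ptk7, a co-receptor of planar polarity signalling, was lower (-3.08, limma adjusted p = 0.0136), with 5.44, 5.34 and 13.8 against 58.7, 77.4 and 77.3. The inhibitor-family member Dkk3 (-2.09, limma adjusted p = 0.0162) and the nuclear cofactor Pygo2 (-1.64, limma adjusted p = 0.0423) were also lower in NASH-fib than in CCl4-fib.

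Nkd1, a feedback inhibitor and common target of beta-catenin, fell by 2.23 on the log2 scale in NASH-fib (limma adjusted p = 0.00703) and by 2.29 in CCl4-fib (0.00349), and the transcription factor Tcf7 fell in CCl4-fib (-1.90, limma adjusted p = 0.0451), with -1.78 in NASH-fib (0.104). Tnfrsf19, another target gene, was higher than in HSCs both in NASH-fib (4.64, limma adjusted p = 0.00418) and in CCl4-fib (3.89, 0.00665). Axin2, the most used target gene of beta-catenin, had values of 23.4, 13.1 and 29.9 in HSCs, while CCl4-fib had 51.6, 63.8 and 57.2 and NASH-fib had 6.80, 31.2 and 21.6, and was called in no comparison (limma adjusted p = 0.872 in NASH-fib and 0.11 in CCl4-fib against HSCs, and 0.0975 between them). CCl4-fib was above HSCs and NASH-fib in each library for Axin2 and for Wls, the carrier of Wnt ligands to the cell surface, whose means were 1032 in HSCs, 2115 in CCl4-fib and 1145 in NASH-fib without a call. Porcn, which acylates Wnt ligands, and Ctnnb1, the gene of beta-catenin, were called in no comparison either, and Ctnnb1 differed by 0.0041 on the log2 scale between NASH-fib and CCl4-fib, with a 95% interval from -0.63 to 0.64. Lef1 did not pass the filter on low counts, with mean values of 2.43 in HSCs, 3.12 in CCl4-fib and 4.69 in NASH-fib.

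**Figure D5:**
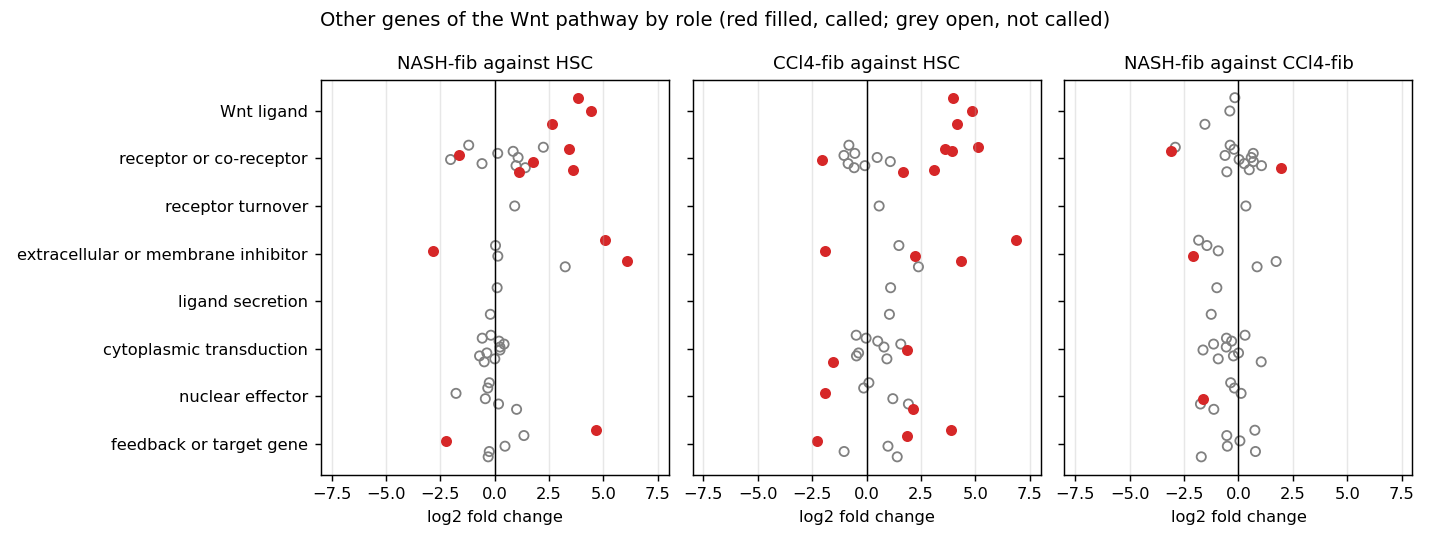
Log2 fold change of the 48 other pathway genes tested, by role, in the 3 comparisons (red filled, called; grey open, not called). Calls against HSCs are mostly higher among ligands, receptors and inhibitors, and 4 genes are called between NASH-fib and CCl4-fib.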

How the data were processed

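RNA of the 9 libraries (3 groups of 3) was amplified (SMARTer Ultra Low) and read from a single end. The authors aligned them to mm10 with STAR and, per the file headers, counted them with HOMER on exons of either strand, with at most 3 reads per position, and normalized 10 libraries together, the tenth of which was not analysed here. CASAVA is also named in the submitters' processing notes, and versions are not given in the sources used here. The deposited values are a signal (reads times a factor for each library), from which whole reads were recovered for 100% of the values (within 0.05 reads). Counting without strand cannot separate a gene from an antisense partner, but none of the 10 genes overlaps another entry. The limit on reads per position compresses genes with many reads per base, and the 10 genes had at most 1.19 reads per base. The number of value columns left unused was 0.

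Genes were kept by edgeR's filterByExpr (version 4.0.16, minimum count 10) on recovered reads and tested with limma 3.58.1 (R 4.3.3; trend in eBayes) on log2(value + 1), all 9 libraries being fitted together, with Benjamini-Hochberg adjustment over 13651 genes. On this scale the change of a low gene is understated. Replicates are pools of mice, so p-values measure the spread between pools, and the smallest two-sided p of an exact permutation test of 3 against 3 would be 0.1. A group with at most 3 reads in every library is at the floor, and the 3 reads and all intervals cover counting or fit error only. The procedure was tested on simulated data with known changes. DESeq2 1.42.0 and edgeR on recovered reads, other scalings, filters, pseudocounts, samples in the fit, blocks and left-out libraries were tried as alternatives.

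The 10 genes, the pathway list and the marker lists were chosen with earlier results of these data known. The genes named were the 10, for each comparison the 4 other pathway genes with the largest called change in each direction whose libraries do not overlap, Axin2, Lef1, Nkd1, Ctnnb1, Wls and Porcn, for each of the 10 the 3 genes most like it, and Col1a1, Acta2 and Lrat. Markers named singly beside a result (Tie1, Cdh5, Lyve1, Tek, Oit3, Msln, Upk3b, Upk1b, Lrrn4, Gpm6a, Wt1, Bnc1, Krt19, Krt7, Epcam, Sox9, Cftr, Col1a2 and Col3a1) were chosen after their values were seen. The same holds for the receptor Ror1. Col1a1 had mean values of 673 in HSCs, 10290 in CCl4-fib and 4322 in NASH-fib. Upstream bases came from RefSeq.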

Additional observations from a re-analysis of the deposited data

Results flagged for a closer look

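Wnt2b, Wnt4 and Sfrp2 changed differently from HSCs in the 2 fibroblast groups, by the test of NASH-fib against CCl4-fib in which the HSC libraries cancel. The change of Wnt2b was 3.41 higher on the log2 scale in NASH-fib, and this held as a call in 15 of 18 alternatives. The change of Wnt4 was -3.18 (14 of 18) and that of Sfrp2 was -2.32 (13 of 18). Each kept its direction in all 18.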

How the results depend on the processing

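The counts of the 10 genes called (9 in NASH-fib and 8 in CCl4-fib against HSCs, 3 between them) were 9 to 10, 8 and 3 to 4 with edgeR, DESeq2, TMM-scaled log2 CPM, no filter, pseudocounts of 0.5 and 5, or a fit on the compared groups only. DESeq2 and edgeR added Rspo3 between the fibroblast groups, and DESeq2 added Wnt4 in NASH-fib against HSCs (-1.89, adjusted p = 0.0456). A minimum average RPKM of 100 is named in the methods of the study, which do not say over which libraries the average was taken. With RPKM from the recovered reads averaged over all 9 libraries, this minimum left 0 of the 10 genes and 2 other pathway genes to test. All 6 counts were then 0, with 0 at an unadjusted p under 0.05 among the 10. With the prefix of the library names as a term, 6, 8 and 1 of the 10 genes and 4, 12 and 0 of the other pathway genes were called; the calls of Wnt2 (-2.63), Wnt2b (3.14) and Wnt9b (-3.63) were lost in NASH-fib against HSCs, and those of Wnt2b (3.49) and Sfrp2 (-2.40) between the fibroblast groups, with fold changes close to those without the term and a loss whose cause was not tested. Leaving out 1 library at a time gave 8 to 10, 8 and 0 to 4 calls among the 10 genes, and 9 to 15, 14 to 25 and 0 to 4 among the other pathway genes (13, 20 and 4 with all libraries). Between the fibroblast groups, both lists had 0 calls without CCl4-fib replicate 2. For these alternatives the share of all genes called was not counted.

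Signs changed only in differences that were not called. Sfrp1 between the fibroblast groups was 0.26 with edgeR, 0.23 with DESeq2 and 0.18 with TMM scaling, and ran from -0.31 to 0.54 when 1 library was left out, positive at 0.28 in the absence of CCl4-fib replicate 3 and at 0.54 in that of NASH-fib replicate 1. Fzd2 there was -0.0065 when NASH-fib replicate 1 was left out, and Wnt2b in CCl4-fib against HSCs ran from -0.67 to 0.20, with 0.20 in the absence of HSC replicate 3 and 0.011 in that of CCl4-fib replicate 2.

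Replicate numbers of the labels did not pair the libraries: over 9 pairs of the same number, deviations from the group means correlated between -0.473 and 0.514, 1 pair was over 0.1 and 2 of the libraries correlated best with their own number. With the replicate block, the counts were 9, 8 and 3 for the 10 genes and 10, 16 and 3 for the other pathway genes. The largest correlation of any pair was 0.645, between HSC replicate 2 and NASH-fib replicate 1, whose numbers differ. Depth limits Wnt9b, Wnt2b, Fzd2 and Sfrp1, whose lower groups held at most 4, 10, 3 and 11 reads in a library.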

Other observations

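The Frizzled family gives the setting of Fzd2. Of the summed RPKM of the 10 Frizzled genes, Fzd2 held at most 0.894% in HSCs, 9.87% to 10.8% in CCl4-fib and 8.64% to 10.3% in NASH-fib. Fzd1 was the most abundant Frizzled transcript in 7 of the 9 libraries. It was replaced in that place by Fzd8 (32.3%) in HSC replicate 2 and by Fzd7 (24.5%) in NASH-fib replicate 1. The summed Frizzled RPKM was 24.7 to 42.9 in HSCs, 49.1 to 63.4 in CCl4-fib and 54.7 to 75.9 in NASH-fib, so both fibroblast groups lay above HSCs and overlapped each other. Fzd4 held 21.9% to 27.1% in NASH-fib and 4.66% to 13.4% in CCl4-fib. These shares were not tested.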
